A study of Homo sapiens with 288 samples.

Results

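The EC cells described here are endothelial cells derived from the H1 line of human embryonic stem cells, taken at the upper and the lower end of a ranking by 2 genes, APLN and DLL4. They come from the EQ experiment, which measured 45 EC cells and 51 trophoblast-like TB cells. Of the 45 EC cells, 38 had summed counts of at least 10 to the power 5.4 and at most 31% of their counts in the 50 most abundant genes of the cell. These 38 cells were ranked by the sum of the log2(CPM + 1) values of APLN and DLL4, where CPM is the count of a gene per 1000000 counts of its cell. The 12 cells at the top are called high, the 12 cells at the bottom are called low, and the 14 cells between are called middle, so the high and low cells are 24 of the 288 single-cell libraries in the series. The members were thus chosen by their measured APLN and DLL4 values in EQ, and those values are given as a description only.

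EC cells were seeded in E8 medium with 5 ng/ml BMP4 and 25 ng/ml activin A for 2 days and then received VEGF and WNT for 3 days. TB cells, used here only for comparison of levels, were seeded in E7 medium, which is E8 without FGF2, with 50 ng/ml BMP4 and SB431542. Both come from 1 cell line, each cell was captured in a chamber of the Fluidigm C1 microfluidic system, and its mRNA was converted there into amplified full-length cDNA. In EQ the same mass of cDNA from each cell entered library preparation, and EQ-75% and EQ-Vary are further experiments on the stored cDNA of the same cells. No separate cultures are named, so all EC cells of an experiment are 1 sample. Cells within it are not replicates of a condition, no p-value was computed, and errors below are SDs between cells.

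APLN encodes apelin, a secreted peptide that acts on the receptor APLNR, and DLL4 encodes a membrane-bound ligand of Notch receptors. Both genes are best known in growing blood vessels from tip cells, the leading cells of a sprout, where VEGF signalling raises DLL4 and DLL4 on one cell activates Notch in its neighbours. Notch signalling is also part of arterial specification, and the HEY and HES genes are among its transcriptional targets.

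The sequences around the transcription start of both ranking genes, and of FLT1 and PLVAP, which are described below among the genes higher in the high cells, are printed to show the regions from which these transcripts start. Each is a RefSeq promoter sequence on GRCh38.p14, 5′ to 3′ on the strand of the gene, and runs from 250 bases before the start into the first bases of the transcript. Capitals mark GGAAG or its reverse complement CTTCC, the core of sites bound by ETS factors, a family that includes ERG, FLI1 and ETS1 of endothelial cells. APLN lies at chrX:129654907-129655206 on the minus strand, DLL4 at chr15:40929090-40929389 on the plus strand, FLT1 at chr13:28495079-28495378 on the minus strand and PLVAP at chr19:17377293-17377592 on the minus strand.
APLN: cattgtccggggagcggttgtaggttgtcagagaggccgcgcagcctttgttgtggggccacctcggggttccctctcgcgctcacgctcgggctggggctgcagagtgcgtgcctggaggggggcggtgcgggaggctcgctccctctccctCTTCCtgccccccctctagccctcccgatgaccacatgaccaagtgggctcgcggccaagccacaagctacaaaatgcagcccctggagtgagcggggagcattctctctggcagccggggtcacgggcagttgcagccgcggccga
DLL4: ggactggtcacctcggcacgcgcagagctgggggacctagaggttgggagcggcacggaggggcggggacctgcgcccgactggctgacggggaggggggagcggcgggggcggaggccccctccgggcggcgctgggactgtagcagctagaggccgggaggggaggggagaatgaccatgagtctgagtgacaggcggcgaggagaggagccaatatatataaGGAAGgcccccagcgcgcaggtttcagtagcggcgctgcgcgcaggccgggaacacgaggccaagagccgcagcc
FLT1: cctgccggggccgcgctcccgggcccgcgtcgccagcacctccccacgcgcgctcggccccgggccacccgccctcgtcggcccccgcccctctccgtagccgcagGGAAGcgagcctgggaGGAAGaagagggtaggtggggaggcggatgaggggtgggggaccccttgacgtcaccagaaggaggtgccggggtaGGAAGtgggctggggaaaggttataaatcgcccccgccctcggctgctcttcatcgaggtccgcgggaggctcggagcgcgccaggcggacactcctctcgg
PLVAP: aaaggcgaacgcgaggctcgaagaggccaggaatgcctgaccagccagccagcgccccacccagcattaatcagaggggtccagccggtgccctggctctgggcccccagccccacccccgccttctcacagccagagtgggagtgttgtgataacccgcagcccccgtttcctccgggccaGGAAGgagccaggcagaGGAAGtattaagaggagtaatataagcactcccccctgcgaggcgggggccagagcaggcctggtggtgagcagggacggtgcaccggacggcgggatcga
These 4 windows held 1 match in APLN, 1 in DLL4, 3 in FLT1 and 2 in PLVAP. Of all 35116 promoter sequences of this length, 71.9% held a match on either strand, and of the 87 promoter sequences found for 56 of the 70 genes higher in the high cells, 77.0% did. TGGGAA or TTCCCA, the core recognised by the Notch effector RBPJ, was in 24.03% of all promoter sequences and in 17.2% of those 87, and in 0 of the 4 printed windows. ACAAT or ATTGT, the core of SOX sites, and ACGTG or CACGT, found in hypoxia response elements, were in 27.4% and 21.4% of all and in 20.7% and 26.4% of those 87. These matches describe letters in the window and not binding.

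Apelin and DLL4 did not rise together over the EC cells. Spearman's rho between them was -0.44 and Pearson's r of the log2 values was -0.38 over 38 cells in EQ, each point being 1 library, so both genes share its depth. In EQ-75%, where library preparation was repeated from the cDNA, rho was -0.51 over 37 of these cells. In EQ-Vary, which differed from EQ in the volumes pooled, it was -0.47 over 38 cells. The genes were near the floor in TB cells, with a highest value of 0.600 CPM for APLN and 1.03 CPM for DLL4 among 48 TB cells in EQ.

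APLN ranged from 17.2 to 306 CPM in the high cells, with a median of 103, and from 0 to 211 CPM in the low cells, with a median of 28.9. DLL4 ranged from 8.54 to 547 CPM in the high cells, with a median of 107, and from 0 to 232 CPM in the low cells, with a median of 9.29. The groups overlap in each gene taken alone. At least 50 CPM of both genes was found in 7 of the 12 high cells and in none of the middle or low cells. The ranking by the sum largely fixed that outcome beforehand, so it only describes the groups.

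The low cells are therefore not low in both genes, and the name low refers only to the sum. Several patterns were mixed among them. In EC 31, EC 4, EC 43 and EC 5, APLN was at 211, 140, 138 and 125 CPM and DLL4 was at 1.59, 0, 0 and 0 CPM. EC 27 and EC 19 had the opposite pattern, with DLL4 at 232 and 159 CPM and APLN at 1.39 and 0.363 CPM. EC 15 was the only low cell under 10 CPM in both genes, at 0 CPM of APLN and 5.98 CPM of DLL4. The remaining low cells, EC 34, EC 33, EC 7, EC 29 and EC 25, had a moderate value of at least 1 gene, the highest being 44.9 CPM of APLN in EC 33. At the edge of the high group, EC 3 was inside with a summed score of 11.40 and EC 18 outside with 11.40, equal to 2 decimals, and 11 cells lay within 0.5 of that edge. At the other edge EC 27 was inside with 9.13 and EC 10 outside with 9.37.

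**Figure D1:**
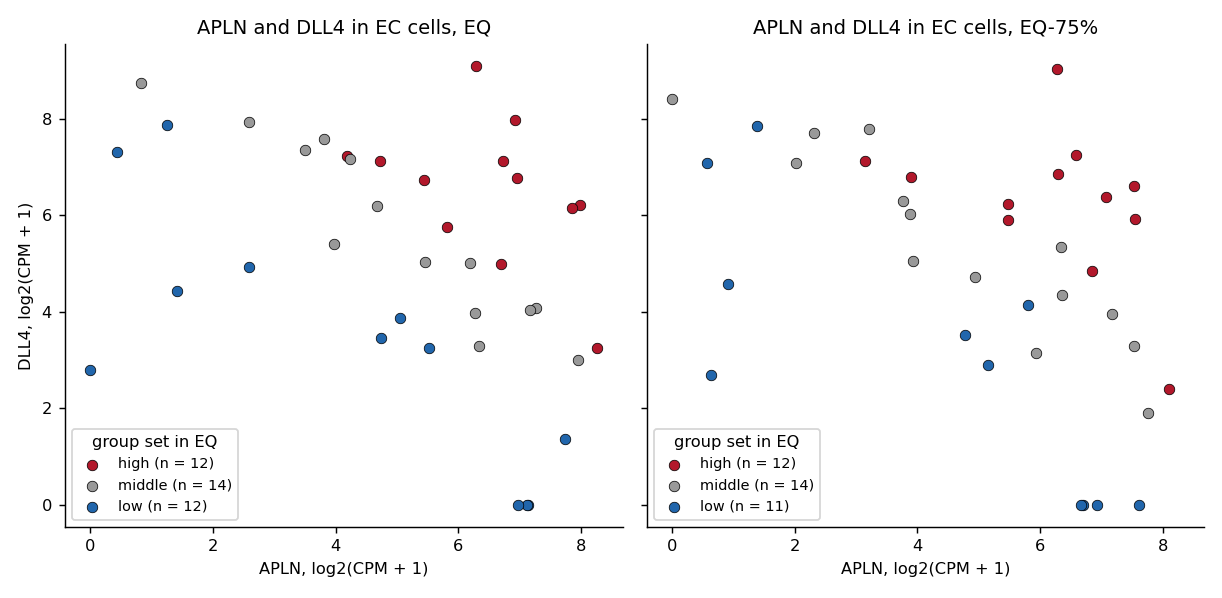
APLN (x axis) and DLL4 (y axis) in each EC cell, both as log2(CPM + 1), in EQ (left, 38 cells) and EQ-75% (right, 37 cells), coloured by the group set in EQ. High cells lie toward the upper right, and low cells are spread. In EQ, 4 low cells had high APLN and almost no DLL4, and 2 had high DLL4 and almost no APLN. The other low cells had moderate or low values of both genes.

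The cells matched their label as endothelial, with exceptions. All 38 had at least 10 CPM of CDH5 and of PECAM1, which encode adhesion molecules of endothelial junctions and average 0.752 and 15.0 CPM in TB cells. A per-cell mean of log2(CPM + 1) was taken over the 18 measured pan-endothelial genes. Its median was 6.42 in high cells (range 6.10 to 7.47) and 5.77 in low cells (range 3.36 to 6.83). EC 15 was at the bottom of that range, with 51.3 CPM of the VEGF receptor KDR, 384 CPM of POU5F1 and 1502 CPM of NANOG, the latter pair being transcription factors of pluripotent cells. The same cell had 995 CPM of TFAP2C, a transcription factor of trophoblast, and 1696 CPM of KRT8, a keratin of simple epithelia, the highest value of each among the 38 cells. EC 34 also had little KDR, at 66.6 CPM, and the next lowest low cell had 453. Depth was similar, with a median total count of 1868287 in high cells and 2098405 in low cells. Genes detected at full depth had a median of 8944.5 and 8640.5, and 7532.5 and 7204.5 after all libraries were thinned to 471598 counts.

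Between high and low cells a gene was called when its mean log2(CPM + 1) differed by at least 1 and the high cell had the larger value, or the smaller one, in at least 80% of the 144 pairs of a high and a low cell. Of 9618 genes with a mean of at least 5 CPM, 70 (0.728%) were higher and 22 (0.229%) were lower in the high cells. The high and low cells overlapped for every one of these 92 genes. These counts depend on the size of the groups, since groups of 19 cells gave 7 and 0 and groups of 9 cells gave 216 and 65, and without EC 23 alone 44 genes were lower. The median difference over all genes tested was 0.10. The tails were uneven, with 1587 of the genes tested at a difference of 1 or more and 702 at -1 or less. Among the 70 higher genes, 22 (31.4%) had a mean under 5 CPM in TB cells, against 10.3% of all genes tested, while 0 of the 22 lower genes did.

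Of the 16 pan-endothelial genes tested, 4 were called higher, where 0.728% of all genes tested were, and their median difference was 0.74 against 0.10 over all genes. None was called lower, but with 0.229% of all genes called lower, 0 calls in a list of this size is the background, and nothing is read from 0 calls in this or any list below. CDH5, which encodes VE-cadherin, the adhesion molecule of endothelial junctions, ranged from 315 to 2281 CPM in high cells (median 532) and from 34.4 to 492 CPM in low cells (median 216). Only the upper part of the low cells reached the lower part of the high cells. On the log2(CPM + 1) scale CDH5 was 9.23 ± 0.84 (SD, n = 12 cells) against 7.32 ± 1.44 (SD, n = 12 cells), a difference of 1.91, with the high cell above the low cell in 88.9% of pairs. Its summed count was 15213 over the high cells (exact Poisson 95% interval 14972 to 15457) and 6358 over the low cells (6203 to 6516), and these intervals cover counting error only.

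PLVAP, which forms the diaphragms of endothelial caveolae and fenestrae, ranged from 166 to 638 CPM in high cells and from 1.99 to 403 CPM in low cells, with medians of 291 and 88.2. The difference was 1.87, with 84.7% of pairs. CD34, a sialomucin of endothelial and blood progenitor cells, had medians of 1221 and 379 CPM, with ranges of 168 to 1859 and 37.9 to 1261 CPM. It differed by 1.60, with 81.2% of pairs. EGFL7, a secreted protein of the endothelial matrix, had medians of 157 and 63.7 CPM, ranges of 60.3 to 555 and 18.2 to 291 CPM, and a difference of 1.52 with 86.1% of pairs. On the log2 scale the SD between cells of these genes was larger in the low cells than in the high cells, and the highest low cells lay inside the range of the high cells.

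Other endothelial genes did not pass the limits. PECAM1 was at medians of 964 CPM in high and 1181 CPM in low cells, a log2 difference of 0.27 with the high cell above in 45.8% of pairs. FLI1, an ETS factor, differed by -0.26 with 31.2% of pairs. KDR, the main VEGF receptor and not a member of that list, had medians of 1970 and 1360 CPM and a difference of 0.96 with 70.8% of pairs. Without EC 15 and EC 34 the KDR difference was 0.20 and that of CDH5 was 1.68.

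**Figure D2:**
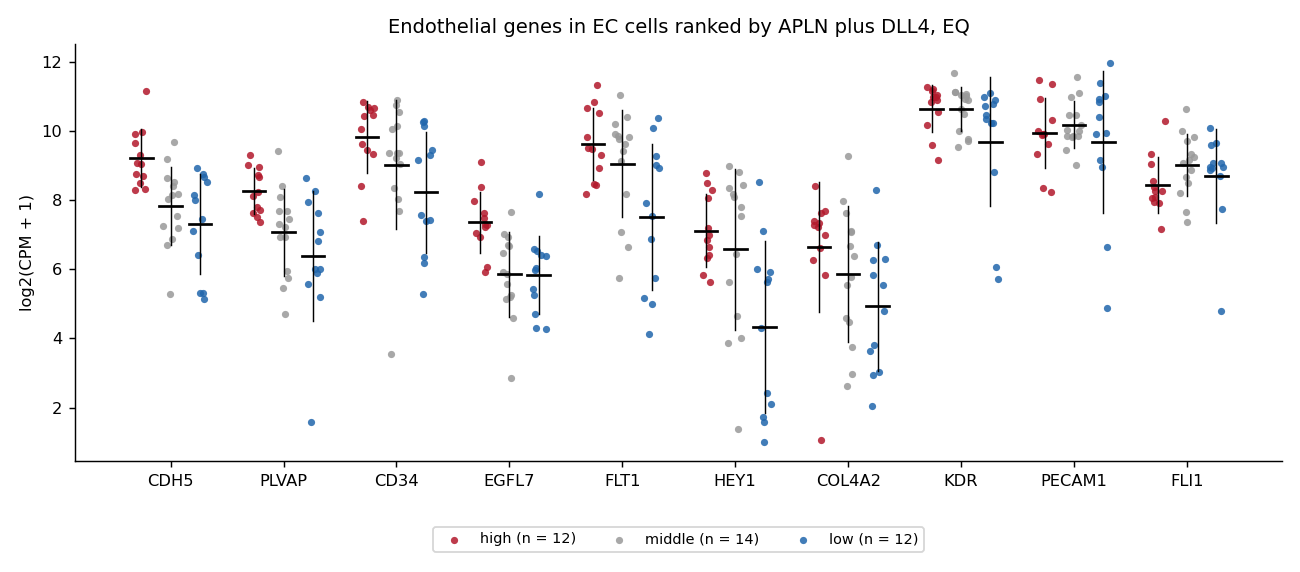
log2(CPM + 1) of 10 endothelial genes in each EC cell of EQ, as points, with the mean (horizontal bar) and SD between cells (vertical line) for high, middle and low cells. CDH5, PLVAP, CD34, EGFL7, FLT1, HEY1 and COL4A2 passed both limits as higher in high cells, and KDR, PECAM1 and FLI1 did not. The means of KDR and PECAM1 were also higher in high than in low cells.

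Among the ligands and receptors of the VEGF family, FLT1 was called higher and 0 of the 7 tested were called lower. FLT1, the receptor that also binds VEGF as a decoy, ranged from 291 to 2576 CPM in high cells and from 16.6 to 1340 CPM in low cells, with medians of 719 and 215. Its difference was 2.12 with 80.6% of pairs. NRP1, a VEGF co-receptor, had medians of 629 and 263 CPM and a difference of 1.99, but its 79.2% of pairs missed the limit, while in EQ-75% it was called, with 80.3%. The ligand VEGFA itself was at low levels in most cells, with medians of 3.51 and 0.771 CPM and a difference of 0.75. The list as a whole had a median difference of 0.75. Over its measured members the mean log2(CPM + 1) was 4.64 in high, 4.67 in middle and 3.99 in low cells.

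The 8 Notch ligands and receptors tested other than DLL4 had a median difference of -0.00, with 4 positive and 4 negative, and 0 were called. JAG1, another Notch ligand, had medians of 67.5 and 35.7 CPM, a difference of 0.04 and 50.0% of pairs. NOTCH4, the receptor restricted largely to endothelium, had medians of 19.2 and 1.32 CPM and a difference of 1.63 with 75.7% of pairs, short of the limit. Of the 11 Notch targets and modulators tested, 1 was called higher and 0 lower, with a median difference of 0.25. That gene was HEY1, a transcriptional repressor induced by Notch, which ranged from 48.6 to 440 CPM in high cells (median 120) and from 1.001 to 366 CPM in low cells (median 33.5). Its difference was 2.79 with 84.0% of pairs, and every high cell had at least 48.6 CPM while the low cells were scattered over the whole range. The related genes HEY2 and HES1 differed by 0.50 and 0.83, with 49.3% and 59.4% of pairs.

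The receptor of apelin, APLNR, had medians of 463 CPM in high and 154 CPM in low cells, with ranges of 56.8 to 1121 and 1.99 to 444 CPM. Its difference was 1.77, and at 79.9% of pairs it lay just outside the limit. SOX7, a SOXF transcription factor of early endothelium, also stood at 79.9%, with medians of 703 and 264 CPM and a difference of 1.85. TEK, the angiopoietin receptor, had medians of 371 and 61.4 CPM and a difference of 2.22 with 77.8% of pairs.

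Arterial genes had the highest median difference among the lists of vessel subtypes, 1.12 over 14 tested genes, against 0.66 over 9 venous genes and 0.65 over 18 tip cell genes. Few of them passed both limits, namely HEY1 of the arterial list, CD34 and COL4A2 of the tip cell list and none of the venous list. The middle cells were not below the high cells in 2 of these lists. The mean log2(CPM + 1) in high, middle and low cells was 3.70, 3.87 and 3.03 for arterial genes. It was 4.04, 4.22 and 3.50 for tip cell genes, and 3.55, 3.42 and 2.99 for venous genes. Such per-cell means ran over all measured list members, and APLN and DLL4 were not left out of a list that held them. The ranking itself may therefore add to these gaps, whereas the median differences leave both genes out. With cells ranked by 1 gene, as described below, the arterial median difference was -0.30 by APLN and 1.03 by DLL4. EFNB2, an arterial ephrin ligand, had medians of 355 and 67.3 CPM and a difference of 2.04 with 75.0% of pairs. GJA4, an arterial gap junction protein, differed by 1.91 with 65.3% of pairs. EPHB4, the venous receptor of EFNB2, was at medians of 5.16 and 23.01 CPM with a difference of -1.37 and 32.6% of pairs. COL4A2, a chain of the basement membrane collagen IV, was the only one of 13 basement membrane genes called, with medians of 152 and 36.5 CPM and a difference of 1.71. COL4A1, which encodes the partner chain of the same collagen, had medians of 195 and 326 CPM and a difference of -0.02.

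Of the 17 endothelial transcription factors tested, 0 were called in either direction, and their median difference was 0.85. The 8 angiopoietin, sphingosine and adrenomedullin genes tested gave 0 calls with a median of 0.89, and the 17 genes of the BMP and TGF-beta pathway gave 0 calls with a median of 0.12. For the 27 glycolysis and hypoxia genes tested the count was also 0, with a median of 0.35.

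Lists of other cell types and states had median differences on either side of that of all genes. Of all genes tested, 55.2% had a positive difference. The median difference was -0.05 over 12 pluripotency genes, 0.44 over 6 primitive streak and mesoderm genes, 0.79 over 9 mesenchymal genes, of which 7 were positive, 0.04 over 6 blood cell genes and 0.34 over 6 trophoblast genes, with 0 calls in each. Summed pluripotency transcripts ranged from 331 to 1820 CPM in high cells and from 225 to 4177 CPM in low cells, and mesenchymal transcripts from 1250 to 5197 CPM and from 266 to 3661 CPM. The trophoblast sum ranged from 115 to 1701 CPM in high and from 64.1 to 3975 CPM in low cells. Summed blood cell genes ranged from 11.7 to 956 CPM and from 17.9 to 2129 CPM, and summed streak and mesoderm genes from 1804 to 3629 CPM and from 263 to 3714 CPM. Immediate early genes had a median difference of 0.07 over 9 genes. The 6 MTRNR2L genes tested, nuclear copies that resemble mitochondrial ribosomal RNA, all had a negative difference, with a median of -0.24 and 0 calls, and their sum ranged from 7041 to 87033 CPM in high and from 4957 to 83280 CPM in low cells. The part of these lists in the differences above was not tested.

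Cell cycle genes separated single cells more than groups. The per-cell mean of 27 G2/M genes reached at least 4 on the log2 scale in 3 of 12 high cells, 1 of 14 middle cells and 1 of 12 low cells. The group medians of that mean were 1.71, 1.24 and 1.83. Although 26 of the 27 genes had a positive difference, against 55.2% of all genes tested, and their median was 0.90, none passed the limits. The genes were read in the same cells, so their signs are not separate observations. TOP2A, a topoisomerase of dividing cells, had medians of 6.15 and 3.72 CPM with highest values of 2336 and 771 CPM, and its difference was 1.72 with all cells and 0.89 without the cells past that level. The 16 G1/S genes tested had a median difference of -0.25 with 0 calls.

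**Figure D3:**
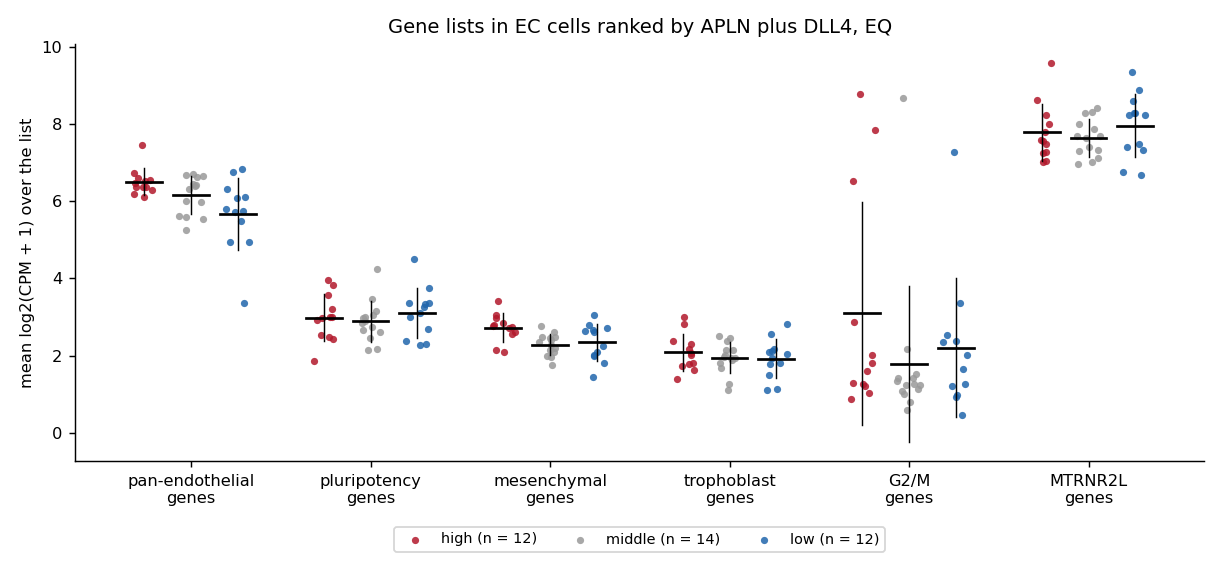
Mean log2(CPM + 1) over the measured genes of 6 lists in each EC cell of EQ, with the mean (horizontal bar) and SD between cells (vertical line) of the 12 high, 14 middle and 12 low cells. The pan-endothelial mean of the low cells reached down to 3.36, and the G2/M mean stood apart in 3 high, 1 middle and 1 low cell.

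The largest differences belonged to genes of many functions. By rule, the 12 genes with the largest difference among those called higher in both EQ and EQ-75% are named here, with their values in EQ. ABI3, an adaptor of actin regulation, was at a median of 48.6 CPM in high cells and 0 CPM in low cells, where its highest value was 2.28. It differed by 4.19 with 88.5% of pairs, and 1 high cell also had none. RIN1, an effector of RAS, ranged from 0 to 192 CPM in high cells and was listed in 1 of 12 low cells, at 0.456 CPM. SMTNL1, a smoothelin-like protein, had a similar pattern, with counts in 10 high cells and 1 low cell. These genes were near absent from TB cells too, at means of 0.0137, 0.0335 and 0.0602 CPM.

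SEC61A1, the channel subunit of the translocon in the endoplasmic reticulum, had the highest share of pairs of all higher genes, 95.8%. It ranged from 9.99 to 354 CPM in high cells (median 48.95) and from 0 to 30.9 CPM in low cells (median 3.02). DEDD, a protein with a death effector domain, had medians of 243 and 15.3 CPM, with ranges of 2.14 to 668 and 0.913 to 101 CPM, and 93.1% of pairs. BGN, the matrix proteoglycan biglycan, ranged from 15.7 to 717 CPM in high cells and from 0.773 to 192 CPM in low cells, a difference of 3.52. OLFML3, a secreted olfactomedin-like protein, had medians of 357 and 43.3 CPM and a difference of 3.30. TNIK, a kinase of Wnt signalling, had medians of 84.4 and 4.72 CPM and a difference of 3.03 with 89.6% of pairs. The other 4 were TMEM135 with a difference of 4.18, the splicing GTPase gene EFTUD2 with 3.36, the zinc transporter gene SLC39A11 with 3.31 and the sugar kinase gene GALK2 with 3.05. SEC61A1, EFTUD2 and other genes of general cell function had means above 50 CPM in TB cells, 58.5 and 105 CPM for these, so this set is not restricted to endothelial genes.

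Several further genes known from endothelium were among the 70, and these were picked after their values were seen. PCDH12, an endothelial protocadherin, differed by 2.81, NES, the intermediate filament nestin, by 2.62, and AFAP1L1 by 2.10, and all of these were called in EQ-75% as well. NPR1, a receptor of natriuretic peptides, differed by 3.27 but was called in EQ only.

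Lower in the high cells in both experiments were 9 genes, all of them named. ALAS1, the first enzyme of haem synthesis, ranged from 107 to 560 CPM in low cells (median 244) and from 0 to 249 CPM in high cells (median 44.3). Among the 9 it had the smallest SD between low cells, 0.61 on the log2 scale, with a difference of -3.45 and the high cell above in 5.56% of pairs. C7orf49, also known as CYREN, a regulator of DNA end joining, had medians of 0.393 CPM in high and 21.4 CPM in low cells and a difference of -3.63. APAF1, the scaffold of the apoptosome, was at 6.73 and 78.9 CPM with a difference of -3.30. BIRC3, an inhibitor of apoptosis, was at 0.977 and 18.6 CPM with a difference of -2.55. AP1S2, a subunit of a clathrin adaptor, was at 16.5 and 126 CPM with a difference of -2.71. The rest were FAM199X with -3.03, the mitochondrial RNA-binding protein gene LRPPRC with -1.95, DZIP3 with -1.89 and the magnesium transporter gene SLC41A2 with -1.19.

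The middle cells took no part in these calls beyond the filter on mean CPM. Their mean lay between those of the high and low cells for 60 of the 70 higher genes and 20 of the 22 lower genes. The genes were chosen for a gap between high and low cells, so a middle mean inside that gap was likely beforehand. It is no separate support for a gradient. For the higher genes the middle cells stood, in the median, at 72.1% of the way from low to high.

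The differences were then measured again in EQ-75%, with the groups kept from EQ, in 12 high and 11 low cells, since EC 29 fell outside the limits there. These libraries repeat the library step on the same cDNA and not the cells. The totals were 70.7% of those in EQ in the median, and the deviations of a cell from the mean of the EC cells correlated with those in EQ at a lowest r of 0.883 over 23 cells. All 70 higher genes kept a positive difference, 68 of them of at least 1, and 59 had at least 70% of pairs. All 22 lower genes kept a negative difference, 21 of them of at least 1 in size. By both limits 77 genes (0.801%) were called higher in EQ-75%, of which 38 were shared with EQ, that is 54.3% of the EQ genes and 49.4% of the EQ-75% genes. The lower direction gave 25 genes (0.26%), of which 9 were shared, or 40.9% and 36% of them. CDH5 differed by 1.96 with 90.2% of pairs in EQ-75%, HEY1 by 2.60 with 81.8%, FLT1 by 2.58 with 83.3% and PLVAP by 1.97 with 91.7%. COL4A2, at 2.02 with 78.8%, was no longer called.

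**Figure D4:**
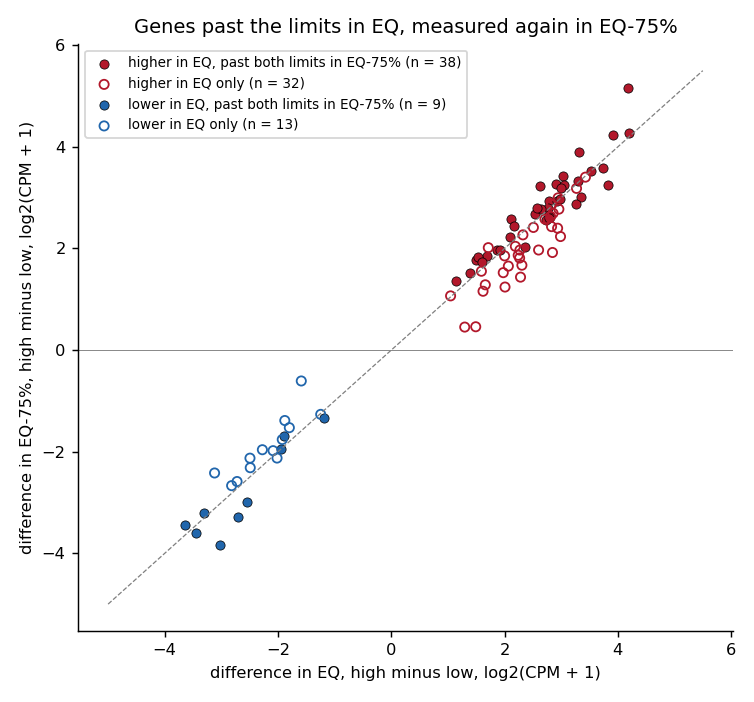
Difference between high and low cells (log2(CPM + 1)) in EQ (x axis) and in EQ-75% (y axis) for the 70 genes called higher and the 22 called lower in EQ. Filled points passed both limits in EQ-75% as well (38 higher and 9 lower), open points did not, and the dashed line marks equal differences.

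When the ranking was repeated within EQ-75%, 39 cells were within the limits and each group held 13. Of the EQ groups, 9 high and 9 low cells fell into the same group. The number of called genes was then 34 higher and 10 lower, with other libraries, cells and group sizes than in EQ. HEY1 differed by 0.20 under that ranking, against 2.79 in EQ, and CDH5 differed by 1.13.

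Because APLN and DLL4 were inversely ranked, the same 38 cells were also ranked by each gene alone, and the 12 cells with most were compared with the 12 with least. These rankings share cells with each other and with the sum. The upper 12 by APLN and the lower 12 by DLL4 had 6 cells in common, and the lower 12 by APLN and the upper 12 by DLL4 had 8, so the values below are given side by side and are not independent. Ranking by APLN called 104 genes (1.08%) higher and 41 (0.426%) lower, and ranking by DLL4 called 92 (0.957%) higher and 75 (0.78%) lower.

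Several vessel genes were called higher in the upper 12 cells by DLL4, but most list members were not. Called higher were 2 of 7 VEGF family, 2 of 14 arterial and 2 of 18 tip cell genes, against 0.957% of all genes tested. Of 13 basement membrane genes, 2 were called higher and 1 lower. Calls were 0 among 16 pan-endothelial, 9 venous, 8 Notch ligand and receptor and 11 Notch target and modulator genes. EFNB2 differed by 3.05 by DLL4, with 86.8% of pairs, and by -2.09 by APLN. FLT1 differed by 2.53 by DLL4 and by -1.19 by APLN. MEF2C, a transcription factor active in vessels, differed by 3.35 and -2.06. VEGFA differed by 2.27 by DLL4, with 86.8% of pairs, and by -2.32 by APLN, with 17.4%, and was called in each. UNC5B, a netrin receptor of tip and arterial cells, differed by 2.95 and -3.94 and was also called in each, although its difference by the sum was -0.02. NID1, the basement membrane protein nidogen, differed by 2.93 and -3.17, and PFKFB4, a regulator of glycolysis, by 3.73 and -3.70.

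By APLN other genes stood highest. JAG1 differed by 3.09 by APLN, with 77.8% of pairs, short of the limit, and by -1.52 by DLL4. HAS2, which synthesises hyaluronan, differed by 4.68 with 93.8% of pairs by APLN and by -4.29 with 12.5% by DLL4. CENPF, a kinetochore protein of dividing cells, differed by 2.97 by APLN with 84.0% of pairs, and the G2/M list had a median of 1.43 by APLN against 0.14 by DLL4. SELE, the adhesion molecule E-selectin, and the transcription factor gene LHX1 differed by 4.48 and 4.13 by APLN and by -2.69 and -3.65 by DLL4. CD93, IL32 and LPL differed by -3.69, -4.10 and -3.39 by APLN and by 3.64, 3.94 and 4.18 by DLL4. These last 5 genes were picked after their values were seen.

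CDH5 and PLVAP behaved otherwise, with a positive difference by either gene, 1.2 by APLN and 0.59 by DLL4 for CDH5, and 0.92 and 0.94 for PLVAP. Neither was called by a single gene, and both were called by the sum. HEY1 differed by 0.51 by APLN and 1.39 by DLL4, and TEK by 0.24 and 2.45.

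**Figure D5:**
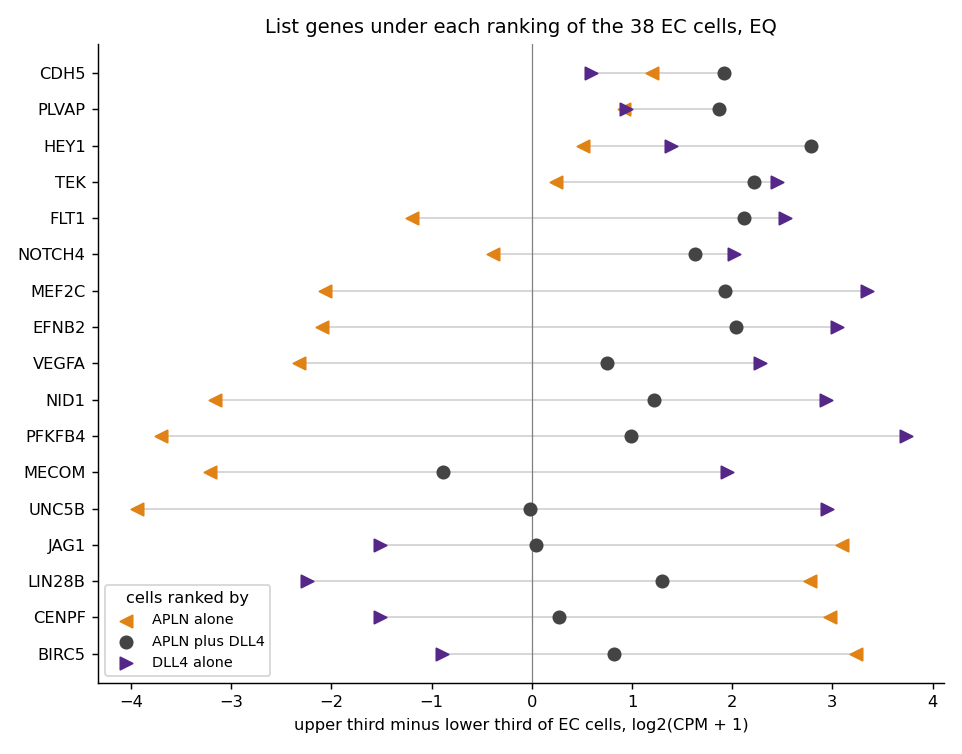
Difference between the upper and lower 12 of the 38 EC cells (log2(CPM + 1)) for 17 list genes, with cells ranked by APLN alone (triangles pointing left), by DLL4 alone (triangles pointing right) and by their sum (circles). CDH5, PLVAP, HEY1 and TEK were positive under every ranking, while genes such as EFNB2, NID1 and UNC5B were positive by DLL4 and negative by APLN.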

How the data were processed

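The authors deposited expected counts of 17492 protein-coding genes without normalization, in 288 columns that cover 3 experiments (EQ, EQ-Vary, EQ-75%) with 45 EC and 51 TB cells apiece. Reads were trimmed to a common length and mapped to GRCh38 with Bowtie 1.2.3 and, per the submitters' processing notes, RSEM 1.2.31 estimated the counts, sharing reads that fit several genes. Reads of copies outside that reference may count under a named gene. Doublets had been removed by cell images in the original experiment. No per-sample column was left out.

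Expected counts were rounded and scaled to CPM. The limits on cells (log10 total count of 5.4, 31% in 50 genes) were those of the methods. Total counts of the ranked cells ranged from 471593 to 3966801; values of few counts are imprecise. Full-length cDNA favours long genes, so levels were not compared between genes. Pairs with equal values were split evenly. Genes were filtered at a mean of 5 CPM over the 38 EC cells. Named genes were APLN, DLL4, the 12 per direction with the largest difference among genes called in EQ and EQ-75%, and members of 22 gene lists. The members, lists and limits were chosen with earlier results of these data known. Each group is part of 1 sample, so no test was run. The steps were tried on simulated data with planted changes far larger than the limit of 1 on the log2 scale. That checks the code and is no support for the genes called. Software was Python 3.11.15, numpy 2.4.6, pandas 2.3.3, scipy 1.17.1, R 4.3.3 and, for pooled size factors, scran 1.30.0.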

Additional observations from a re-analysis of the deposited data

Results flagged for a closer look

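Outside the limits set on depth and on the 50 most abundant genes lay 7 EC cells of EQ, which entered no comparison. In 4 of them APLN or DLL4 had at least 3 counts and stood above the highest of 48 TB cells, which was 0.600 CPM for APLN and 1.03 CPM for DLL4. EC 44 had 140 CPM of APLN from 28 counts and 50.1 CPM of DLL4 from 10 counts. EC 40 had 111 CPM of DLL4 from 22 counts and none of APLN. In EC 45 APLN was at 34.04 CPM from 6 counts, and in EC 42 it was at 14.8 CPM from 5 counts. These cells had 176271 to 336862 counts and 36.6% to 57.6% of them in 50 genes, so the values rest on few reads.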

How the results depend on the processing

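No paired analysis was possible because no result comes from a test and the high and low groups are different cells. Groups of 19 cells gave 7 higher and 0 lower, and groups of 9 cells gave 216 and 65, against 70 and 22 for groups of 12. No test was run, so that 0 has no p beside it. Pooled size factors from scran gave 46 higher and 32 lower, and a pseudocount of 10 gave 44 and 31. Ranking in EQ-75% gave 34 higher and 10 lower. The cells were ranked again under each of these. A share of 90% of pairs left 3 and 3 genes, and a difference of at least 2 left 14 lower. Ranking by APLN alone gave 41 lower and by DLL4 alone 75. Alternatives added after the data were seen gave 37 lower without EC 15 and EC 34 (102 higher), 10 lower when cells were ranked by the lower of both values, and 47 lower without the cells rich in G2/M genes. Leaving out 1 cell at a time gave 64 to 98 higher and 20 to 44 lower, with more than 1.5 times the lower count without EC 23 (44), EC 25 (36), EC 30 (35), EC 31 (35) or EC 2 (34). Requiring CDH5 and PECAM1 removed no cell. The causes were not tested.

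For 44 named genes, 744 of 792 alternative differences moved by less than 1 SD between cells and, for called genes, kept their sign. That limit is wide. HEY1, with an SD of 1.91, went from 2.79 to 1.17 when ranked by the lower of both values and stayed within it. The setting that required CDH5 and PECAM1 removed no cell, so its values repeat the main ones and say nothing about stability. The sign changed in 35 of the 792, in 23 genes, and 23 of the 35 came from ranking by 1 gene. For genes called between high and low cells it changed 13 times, under those rankings: by APLN alone BGN was at -1.23, SLC39A11 at -1.18, GALK2 at -0.33, CD34 at -0.40, COL4A2 at -0.91, FLT1 at -1.19, C7orf49 at 0.53, APAF1 at 0.38, BIRC3 at 0.42, LRPPRC at 1.45, DZIP3 at 0.40 and SLC41A2 at 0.21, and by DLL4 alone AP1S2 was at 0.93. Genes of few counts, such as RIN1 and SMTNL1, are limited by depth.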
